A study of Mus musculus with 28 samples.

Results

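The integrins, laminins and nidogens were followed through the first steps of molar development in the mouse. The members were the protein-coding genes whose symbols begin with Itga, Itgb, Lama, Lamb, Lamc or Nid and name a chain, 39 of the 21896 protein-coding genes and 52636 genes of the count table. They comprise 18 integrin alpha chains, 8 integrin beta chains, 5 laminin alpha, 3 laminin beta and 3 laminin gamma chains, and 2 nidogens. RNAseq libraries were made from single lower first molar tooth germs of wild type C57BL/6JOlaHsd embryos at the bud (E13), cap (E14) and bell (E16) stages, labelled E13.5, E14.5 and E16.5 with the samples. Each stage had 7 teeth, from 7 embryos at E13, 6 at E14 and 5 at E16, and a small rim of other tissue was dissected along with each germ. The left and right tooth of an embryo were separate libraries, so p values measure the spread between teeth, part of which is shared within an embryo.

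Laminins are trimers of an alpha, a beta and a gamma chain that polymerize into the sheet of the basement membrane under every epithelium, and nidogens link that sheet to the collagen IV network. Integrins are receptors made of an alpha and a beta chain that hold cells to laminins, collagens, fibronectin and other ligands and pass signals across the membrane. In the tooth the basement membrane lies between the dental epithelium and the dental mesenchyme, whose exchange of signals drives the folding of the crown.

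The libraries held between 17814073 and 27115729 counts. The left tooth of embryo 3 at E16 stood apart, with the lowest total, and a mean correlation of 0.948 with the other E16 teeth (across genes) where the other libraries had at least 0.969 within their stage. Its summed mesenchyme markers were 67670 normalized counts, against a median of 239600 for E16, and its summed epithelium markers 56600, against a median of 87580. The mesenchyme markers did not vary alike over the E16 teeth. Col1a1, which weighs most in the sum, ranged from 24590 to 145000, Vim from 3775 to 15620, and Prrx1 only from 10030 to 12640. The results that rest on the left tooth of embryo 3 at E16 are given with and without it. Markers of dental epithelium (Cdh1, at least 1151 normalized counts) and dental mesenchyme (Msx1, at least 1909) were present in every tooth. The 9 epithelium markers were all higher at E14 than at E13 and at E16 than at E14, and their sum was 1.88 and 1.92 times that of the stage before. Of the 8 mesenchyme markers, 2 fell at the first step, and 1 rose and 3 fell at the second. In whole tooth germs, more cells of a type and more RNA per cell cannot be told apart.

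The members took between 0.303% and 0.329% of the counts of an E13 tooth, between 0.404% and 0.435% at E14, and between 0.367% and 0.503% at E16. Of the 39, 36 passed the filter on low counts. Itgad, Itgae and Itgax, alpha chains of leukocyte integrins, did not, and had means of 0.323, 4.66 and 4.65 normalized counts over the 21 teeth. Normalized counts are counts divided by the size factor of the library. Changes were tested with edgeR over 19101 genes, and a gene was called at an adjusted p below 0.05.

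Between E13 and E14, 18 members rose and 1 fell, where 11.3% of all tested genes rose and 8.47% fell. Of all 19101 genes of this main fit, 2150 rose and 1617 fell. Without the left tooth of embryo 3 at E16, whose values enter the shared spread, 19 members rose and 3 fell. In that fit 3207 and 2648 of all 19238 tested genes did. In a fit of E13 and E14 alone, 20 members rose and 3 fell, beside 3128 and 2513 of all 18100 tested genes. In both of these fits Lama1 and Itgb8 joined Itga4 among the members that fell. The median log2 fold change was 0.43 over the tested members and -0.01 over all tested genes. Between E14 and E16, 14 members rose and 3 fell, beside 15% and 13.1% of all tested genes, and the median of the members was 0.23. Over both steps together, from E13 to E16, 22 members rose and 2 fell, beside 21.6% and 19.6% of all tested genes, with a median of 0.72. Without the left tooth of embryo 3 at E16, the second step had 19 members higher and 4 lower. In that fit 3565 of all 19238 tested genes rose and 3040 fell, where the main fit had 2870 and 2500 of 19101. Of the 36 tested members, 9 rose in both steps (Itga1, Itga2, Itga11, Itgb2, Itgb4, Lama2, Lama3, Lama5 and Lamc3), where 3.71% of all tested genes did. The plot of fold changes shows both steps for 35 tested members.

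**Figure D1:**
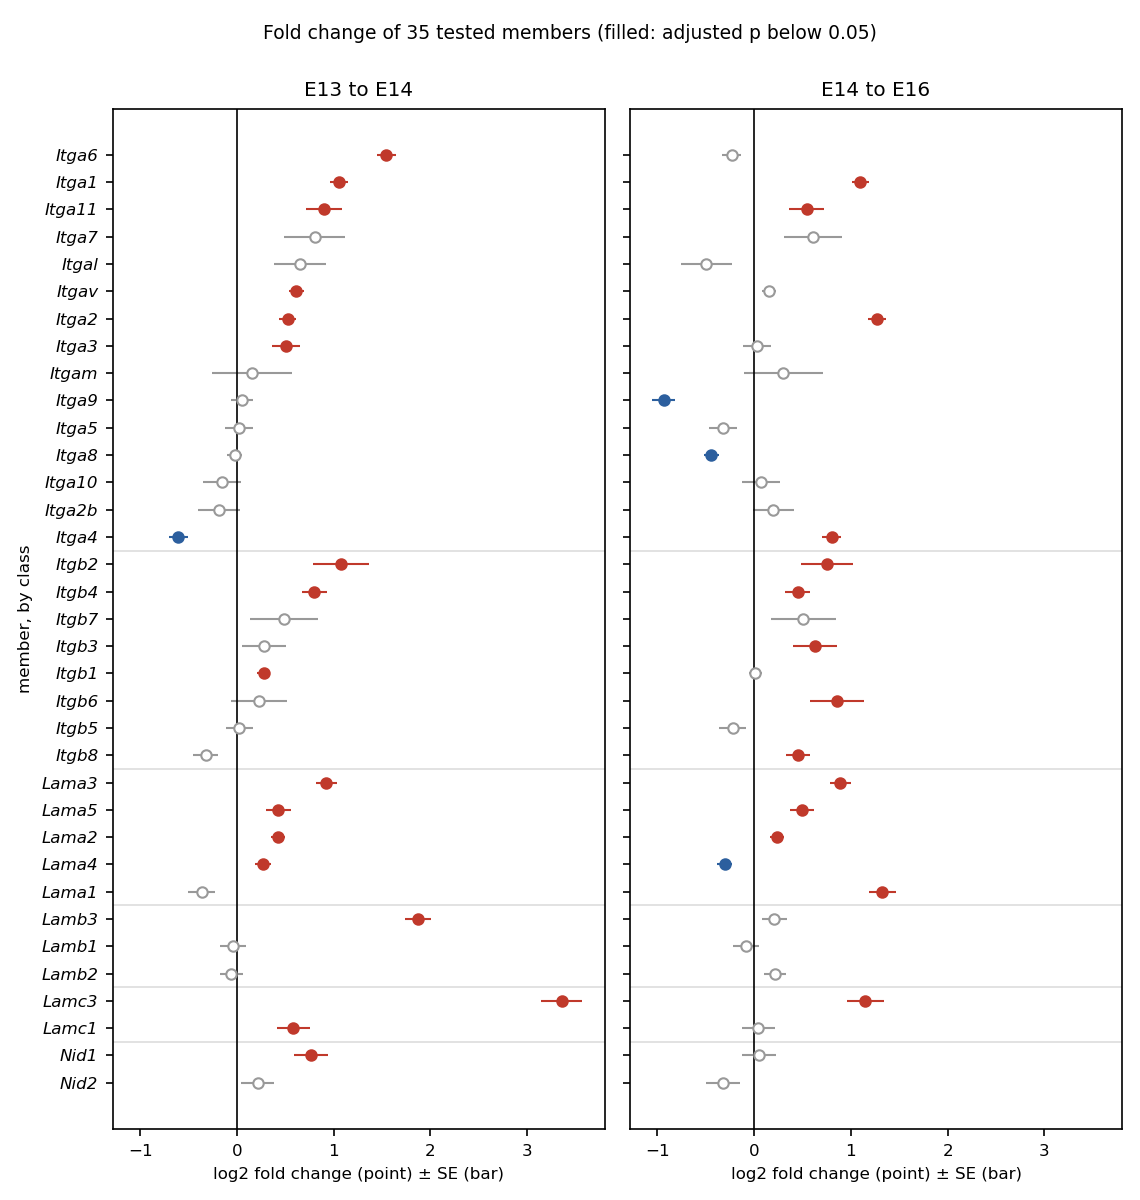
Log2 fold change of each of 35 tested members from E13 to E14 and from E14 to E16. Points are edgeR estimates and bars are SE; filled red points rose and filled blue points fell at an adjusted p below 0.05, open grey points did not pass, and grey lines separate the classes. Lamc3, Lamb3 and Itga6 lie farthest to the right in the first step, and Lama1, Itga2 and Lamc3 in the second.

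The difference between the steps was tested by itself, as the change of the second step minus that of the first. It was above 0 for 4 members and below 0 for 8, beside 6.84% and 6.89% of all tested genes. Without the left tooth of embryo 3 at E16 it was above 0 for 1966 and below 0 for 2029 of all 19238 tested genes. The main fit had 1306 and 1316 of 19101. Of the members it was then above 0 for 4 and below 0 for 12, with Itgb1, Lamc1, Nid1 and Nid2 gained. The 4 were Lama1 (1.69 on the log2 scale), Itga4 (1.41), Itgb8 (0.78) and Itga2 (0.75). Among the 8 were Lamc3 (-2.21), Itga6 (-1.78), Lamb3 (-1.66), Itga9 (-0.98), Lama4 (-0.57), Itgav (-0.46) and Itga8 (-0.42). Lamb3 and Lamc3 thus changed more between bud and cap than between cap and bell. The call of Itga8 (adjusted p = 0.0385) ended in 15 of the 21 fits that left out 1 tooth, with adjusted p between 0.0228 and 0.128 over all alternatives. That of Itgav ended without the right tooth of embryo 5 or of embryo 6 at E14 (adjusted p = 0.0721 and 0.0578, where all alternatives ranged from 0.00276 to 0.0721), and that of Itgb8 without the right tooth of embryo 1 at E14 (adjusted p = 0.0507, where all ranged from 0.00664 to 0.0507).

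Lamc3, a gamma chain that can take the place of Lamc1 in a laminin trimer, had the largest fold change of the 36 tested members in the first step. Its lowest, median and highest teeth were 39.4, 104 and 118 normalized counts at E13. At E14 they were 712, 965 and 1030, and at E16 962, 1985 and 2564. Every E14 tooth was above every E13 tooth, and 1 E16 tooth, the left tooth of embryo 3, lay within the range of E14. The mean rose 10.3 times to E14 (log2 fold change 3.36 ± 0.21 SE, adjusted p = 4.19e-11) and again at E16 (1.15 ± 0.19, adjusted p = 4.35e-05).

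Lamb3, the beta chain of the laminin that anchors epithelial cells through hemidesmosomes, had 282, 397 and 508 normalized counts in its lowest, median and highest tooth at E13. The same values were 1157, 1372 and 1602 at E14 and 1020, 1755 and 1886 at E16. The stages E13 and E14 did not overlap, whereas E14 and E16 did. The log2 fold change was 1.87 ± 0.13 (SE) in the first step (adjusted p = 2.04e-10) and 0.21 ± 0.13 in the second (adjusted p = 0.231; 0.31 with adjusted p = 0.0218 without the left tooth of embryo 3 at E16, and between 0.0218 and 0.344 over all alternatives). Of the members, 22 overlap another annotated gene, Lamb3 among them. The promoter of this beta chain, the one that rose in the first step, is given as the 250 bases before the RefSeq start, chr1:193301744-193301993 on the plus strand (GRCm38.p6). Capitals mark matches to CANNTG, the E-box, of which it holds 3. RefSeq lists 2 starts for Lamb3, and this window lies before the more upstream of them. The window before the other start holds 1 match.
Lamb3: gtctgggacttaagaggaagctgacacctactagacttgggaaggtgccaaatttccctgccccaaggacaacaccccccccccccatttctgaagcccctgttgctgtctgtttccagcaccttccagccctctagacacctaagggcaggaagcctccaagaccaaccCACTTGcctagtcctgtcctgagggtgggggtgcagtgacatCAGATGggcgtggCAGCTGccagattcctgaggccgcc

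Lama3, the alpha chain of that laminin, belongs to the tissue category of the study. Its lowest, median and highest teeth had 554, 659 and 819 normalized counts at E13, 994, 1361 and 1592 at E14, and 1816, 2466 and 2726 at E16. Its teeth did not overlap between any stages. It rose by nearly equal amounts in both steps, 0.92 ± 0.11 (SE, adjusted p = 1.34e-06) and 0.89 ± 0.11 (adjusted p = 7.84e-07). Both Lamb3 and Lama3 thus rose between bud and cap, and the difference between the steps passed the test for Lamb3 but not for Lama3 (-0.03, adjusted p = 0.930).

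The receptors of this laminin are Itga6 paired with Itgb4 in hemidesmosomes, and Itga3 paired with Itgb1. Itga6 had 2100, 2315 and 2539 normalized counts in the lowest, median and highest tooth at E13, 5790, 6573 and 7872 at E14, and 3740, 5963 and 6544 at E16. Every E14 tooth exceeded every E13 tooth, and the log2 fold change was 1.54 ± 0.10 (SE, adjusted p = 4.19e-11), followed by -0.23 ± 0.10 in the second step (adjusted p = 0.0727). Itgb4 had 1138, 1440 and 1902 at E13, 2276, 2531 and 3263 at E14, and 2014, 3831 and 4095 at E16. It rose in both steps, by 0.80 ± 0.13 (adjusted p = 9.32e-05) and 0.45 ± 0.13 (adjusted p = 0.0112). With the teeth of an embryo summed, the second step of Itgb4 missed the threshold (adjusted p = 0.0527, the highest of all alternatives, the lowest being 5.31e-05). Itga3 had 1030, 1153 and 1439 at E13, 1427, 1655 and 2040 at E14, and 786, 1860 and 2259 at E16. Its teeth overlapped between E13 and E14, and it rose in the first step by 0.50 ± 0.14 (adjusted p = 0.0144), with 0.03 ± 0.14 in the second (adjusted p = 0.900).

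These chains moved beside the epithelium markers, whose sum was 19040 to 29440 normalized counts at E13, 39460 to 50140 at E14 and 56600 to 94720 at E16, with no marker at 0 in a tooth. Each chain was therefore also divided by that sum in the same tooth. Over that sum, the mean of Lama3 moved by -0.01 on the log2 scale in the first step and by -0.02 in the second. The value of Lamc3 moved by 2.51 and 0.19, that of Lamb3 by 0.96 and -0.73, and that of Itga6 by 0.62 and -1.17. Itgb4 moved by -0.11 and -0.49, and Itga3 by -0.42 and -0.94. Relative to this sum, Lama3 was thus level through both steps and Lamc3 was higher from E14 on. Itga6 and Lamb3 had their highest mean ratio at E14. The markers weigh unequally in the sum and rose by unequal amounts. Mean normalized counts at E13, E14 and E16 were 4701, 9450 and 23010 for Krt5 and 995, 1511 and 1787 for Epcam. The ratios thus depend on the markers summed. These ratios are descriptions without a test, and the part of the epithelium in the changes above was not tested.

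**Figure D2:**
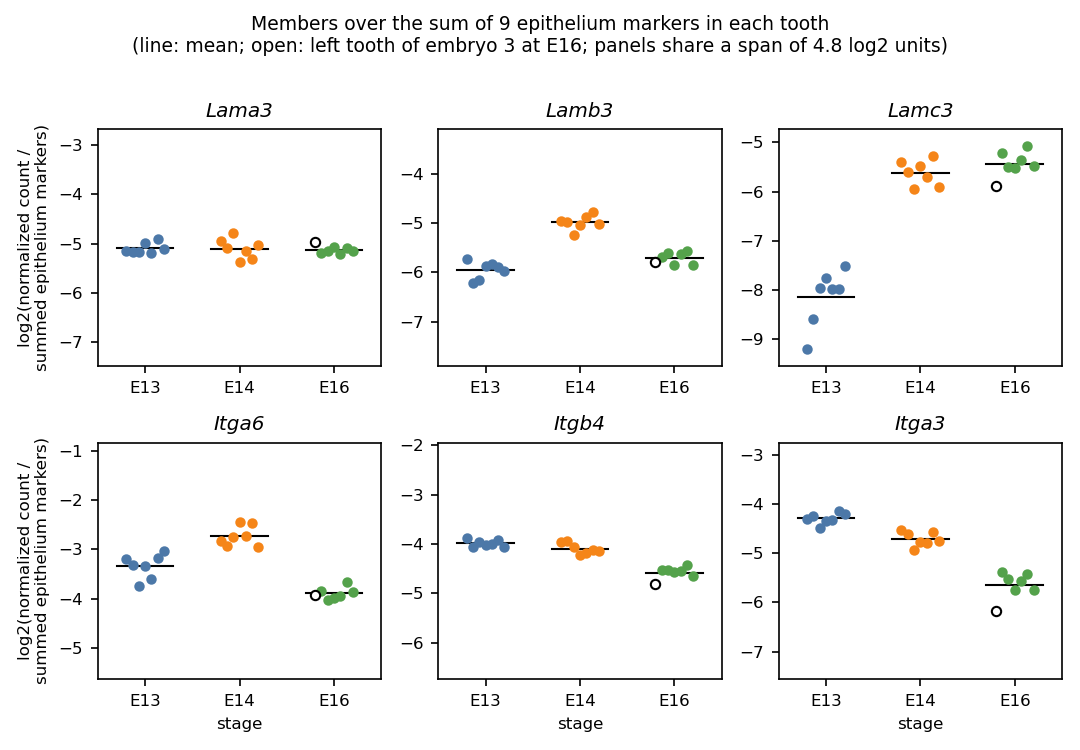
Log2 ratio of the normalized count of 6 members to the summed normalized count of 9 epithelium markers, in each tooth (points) by stage, with lines at the mean of 7 teeth and an open point for the left tooth of embryo 3 at E16. Lama3 is level across stages, Lamc3 is lowest at E13, and Itga6 and Lamb3 are highest at E14.

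The laminin with the widest distribution in embryonic epithelia is made of Lama5, Lamb1 and Lamc1. Per kilobase of exon union, Lama5 had the highest mean among the laminin alpha chains at each stage, an order that at E13 and E14 depends on the length used. It had 507 ± 107 (SD, n = 7) normalized counts per kilobase at E13, 683 ± 104 at E14 and 963 ± 165 at E16. In normalized counts its lowest, median and highest teeth were 4544, 5431 and 7455 at E13, 6245, 7749 and 10040 at E14, and 8318, 10720 and 13590 at E16. Neighboring stages overlapped, but E13 and E16 did not, and Lama5 rose by 0.43 ± 0.13 (SE) on the log2 scale in the first step (adjusted p = 0.0186) and by 0.49 ± 0.13 in the second (adjusted p = 0.00456). Lamc1, the gamma chain of most laminins, had 5945, 6166 and 6692 at E13, 8853, 9225 and 9788 at E14, and 2941, 10730 and 11350 at E16. It rose in the first step without overlap (0.58 ± 0.17, adjusted p = 0.0163). In the second step its change was 0.04 ± 0.17 (adjusted p = 0.874), and 0.22 (adjusted p = 0.000172) without the left tooth of embryo 3, the only E16 tooth under 10220, with adjusted p between 0.000172 and 0.984 over all alternatives. Lamb1 had 6738, 7097 and 8296 at E13, 6319, 7128 and 7570 at E14, and 2986, 7000 and 8183 at E16. The teeth of Lamb1 overlapped between all stages, and neither step passed the test (-0.04 ± 0.13, adjusted p = 0.876, and -0.09 ± 0.13, adjusted p = 0.672). Lamb2, which replaces Lamb1 in vessels, muscle and nerve, did not pass the test in either step (adjusted p = 0.774 and 0.178), but rose in the second without that tooth (0.30, adjusted p = 0.0187, where the alternatives spanned 0.0187 to 0.304).

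The other laminin alpha chains moved in different directions. Lama1, the main alpha chain of the earliest embryonic basement membranes, had 538, 633 and 909 normalized counts in its lowest, median and highest tooth at E13, 455, 570 and 608 at E14, and 842, 1424 and 1824 at E16. Every E16 tooth was above every E14 tooth, and the change was -0.36 ± 0.14 (SE) on the log2 scale in the first step (adjusted p = 0.0662) and 1.32 ± 0.14 in the second (adjusted p = 7.82e-08). The first step of Lama1 passed in fits of the compared stages only (adjusted p = 0.0236) and without the left tooth of embryo 3 at E16 (adjusted p = 0.0160), where all alternatives ranged from 0.0160 to 0.156.

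Lama2 and Lama4 are in the dispensable category of the study and are best known from muscle and nerve, and from vessels. Lama2 had 2226, 2469 and 2868 at E13, 3124, 3288 and 3622 at E14, and 2997, 4102 and 4326 at E16, and rose in both steps (0.43 ± 0.07, adjusted p = 0.000178, and 0.24 ± 0.07, adjusted p = 0.0183). Lama4 had 4613, 5464 and 6187 at E13, 6013, 6579 and 6895 at E14, and 3962, 5359 and 6199 at E16. It rose in the first step (0.27 ± 0.08, adjusted p = 0.0205) and fell in the second (-0.31 ± 0.08, adjusted p = 0.00552), although the teeth of neighboring stages overlapped. The first step missed the threshold without the right tooth of embryo 5 at E13 (adjusted p = 0.0543, where all alternatives ranged from 0.00104 to 0.179). Beside Lama4, the sum of 8 endothelium markers was 6355 to 8088 normalized counts at E13, 7974 to 9872 at E14 and 4068 to 11660 at E16, with a median log2 fold change of 0.11 in the first step, in which 1 marker rose, and 0.07 in the second. No marker of this list was at 0 in a tooth, and their part in the result was not tested.

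Nid1, a linker of laminin and collagen IV, had 4254, 4718 and 5238 normalized counts in its lowest, median and highest tooth at E13, 7597, 8240 and 8697 at E14, and 2519, 9593 and 10230 at E16. It rose in the first step with no overlap (0.77 ± 0.18 SE on the log2 scale, adjusted p = 0.00291). In the second step the change was 0.05 ± 0.18 (adjusted p = 0.854), and 0.23 (adjusted p = 0.00165) without the left tooth of embryo 3, with adjusted p between 0.00165 and 0.954 over all alternatives. Nid2, its paralog, had 2460, 2992 and 3355 at E13, 3116, 3473 and 3680 at E14, and 875, 2949 and 3720 at E16. The teeth of Nid2 overlapped, and it passed in neither step (0.21 ± 0.17, adjusted p = 0.417, and -0.32 ± 0.17, adjusted p = 0.175). Fitted without the E16 teeth, the first step of Nid2 passed (0.22, adjusted p = 0.0106), as it did without the left tooth of embryo 3 at E16 alone (adjusted p = 0.0207, where all alternatives ranged from 0.0106 to 0.798).

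**Figure D3:**
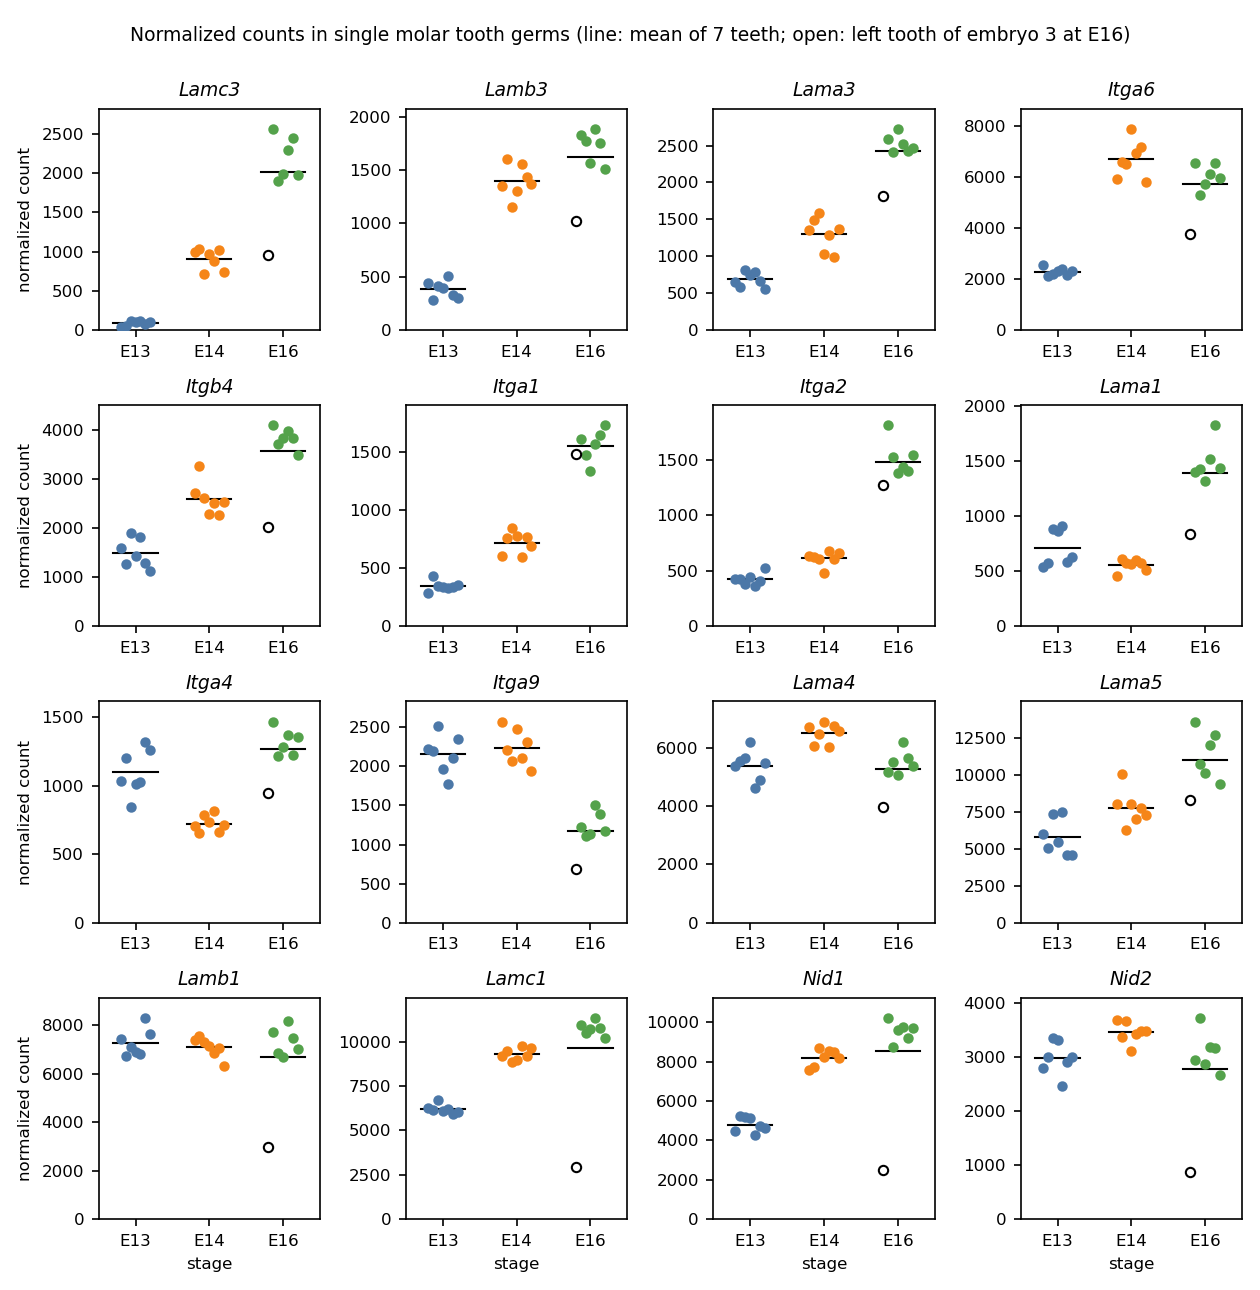
Normalized counts (linear axes from 0) of 16 members in each of the 7 teeth (points) of E13, E14 and E16, with lines at the mean and an open point for the left tooth of embryo 3 at E16. Lamc3, Lamb3, Itga6, Lamc1 and Nid1 separate E13 from E14 completely, Itga4 dips at E14, Itga9 is lowest at E16, and the open point is below the other E16 teeth for Lamc1 and Nid1.

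The share of each chain in its class was computed in each tooth from normalized counts per kilobase of exon, as a description with no test. Among the laminin beta chains, Lamb3 went from 4.38% ± 0.88 (SD, n = 7) at E13 to 14.8% ± 1.7 at E14 and 16.3% ± 0.88 at E16, and Lamb1 from 55.7% ± 4.4 to 44.2% ± 4.4 at E16. Among the alpha chains, Lama5 held 40.5% ± 4.8, 42.3% ± 3.8 and 47.7% ± 3.1. Lama3 went from 5.13% ± 0.39 to 7.6% ± 1.4 and 11.3% ± 0.96, and Lama4 from 36.2% ± 4.5 to 33.7% ± 2.6 and 21.8% ± 1.6. Nid1 held 54.7% ± 1.3, 63.9% ± 1.8 and 69.5% ± 3.2 of the nidogen level. Lama5, Lamb1 and Nid1 had the highest means of their classes per kilobase of exon union at every stage, while the shares of Lama3 and Lamb3 grew. The lead of Lama5 over Lama4 depends on this length, and their teeth overlapped at E13 and E14. The exon union of Lama4 is 12068 bases and its longest transcript 6046, where Lama5 has 11388 for both. Divided by the longest transcript, Lama4 had the higher mean at E13 and E14, and Lama5 at E16.

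**Figure D4:**
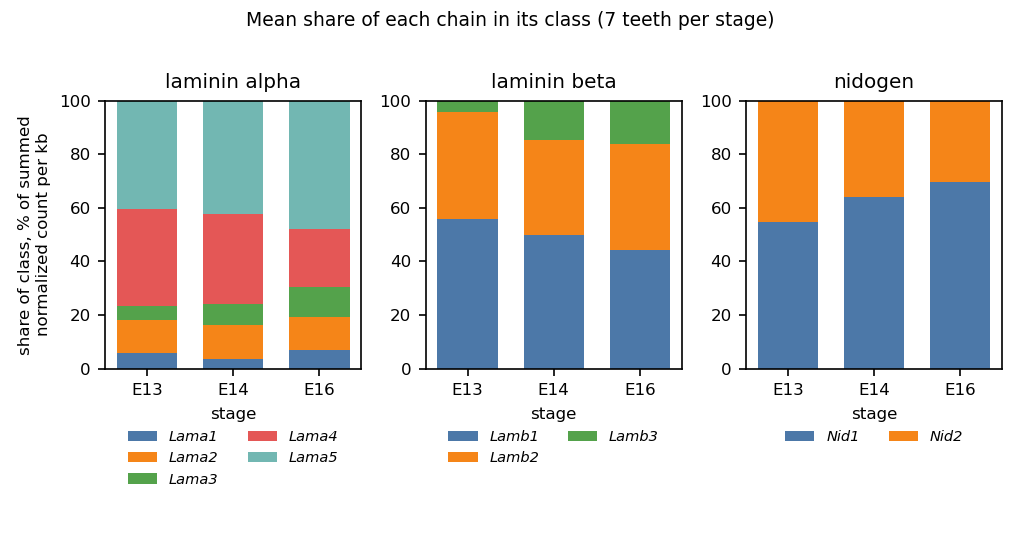
Mean share (%) of each chain in the summed normalized count per kilobase of its class, for laminin alpha chains, laminin beta chains and nidogens at E13, E14 and E16 (7 teeth each; stacked bars add to the whole class). Lamb3 goes from 4.38% to 16.3% of the beta chains and Lama3 from 5.13% to 11.3% of the alpha chains.

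Among the integrin alpha chains, 6 rose and 1 fell in the first step, and 4 rose and 2 fell in the second, of 15 tested. Of all tested genes, 11.3% rose and 8.47% fell in the first step, and 15% and 13.1% in the second. The alpha chain with the highest mean per kilobase of exon union differed between stages. It was Itga5, the fibronectin receptor chain, at E13 (482 ± 16.4 SD, n = 7, normalized counts per kilobase), Itga6 at E14 (740 ± 79.8) and Itgav, which binds RGD ligands, at E16 (709 ± 67.2). The teeth of Itga6 and Itgav overlapped at E14 and E16, and the order depends on the length used. Itga6 has an exon union of 9025 bases and a longest transcript of 4310, and Itgav 10744 and 7054. Divided by the longest transcript, Itgav had the highest mean at E13 and Itga6 at E14 and E16. Itga6 held 11.9% ± 0.58 (SD, n = 7) of the summed alpha chain level at E13, 24.5% ± 1.9 at E14 and 21.2% ± 1.4 at E16. Itga5 had 2248, 2413 and 2448 normalized counts in its lowest, median and highest tooth at E13, 2001, 2392 and 2700 at E14, and 785, 2011 and 2398 at E16. The teeth overlapped and neither step of Itga5 passed (0.02 ± 0.15 SE, adjusted p = 0.933, and -0.32 ± 0.15, adjusted p = 0.103). Without the left tooth of embryo 3, the second step of Itga5 passed (-0.17, adjusted p = 0.0483, the lowest of all alternatives, the highest being 0.194). Itgav had 3997, 4483 and 4808 at E13, 6323, 6495 and 8006 at E14, and 6697, 7671 and 8506 at E16, and rose in the first step without overlap (0.61 ± 0.07, adjusted p = 1.55e-06) with 0.16 ± 0.07 in the second (adjusted p = 0.120).

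Itga1, Itga2, Itga10 and Itga11 pair with Itgb1 into collagen receptors. Itga1 had 285, 344 and 431 normalized counts in its lowest, median and highest tooth at E13, 600, 763 and 851 at E14, and 1341, 1568 and 1733 at E16. No stages overlapped, and Itga1 rose in both steps, by 1.05 ± 0.09 (SE) on the log2 scale (adjusted p = 1.05e-08) and 1.1 ± 0.09 (adjusted p = 1.49e-09), with a difference between the steps of 0.05 ± 0.16 (adjusted p = 0.883). Itga2 had 367, 424 and 523 at E13, 478, 620 and 680 at E14, and 1268, 1434 and 1808 at E16. It rose in both steps, by 0.52 ± 0.09 (adjusted p = 0.000193) and 1.27 ± 0.09 (adjusted p = 1.30e-10), and the second step was larger (difference 0.75 ± 0.16, adjusted p = 0.00230). Itga11, a receptor of fibrillar collagen in mesenchyme, had 168, 303 and 337 at E13, 461, 514 and 684 at E14, and 319, 776 and 1045 at E16. It rose in the first step without overlap (0.90 ± 0.19, adjusted p = 0.00119) and in the second with overlap (0.54 ± 0.18, adjusted p = 0.0280), a call that ended in 4 of the fits that left out 1 tooth and with the teeth of an embryo summed (adjusted p = 0.102, within a range of 0.000174 to 0.111). Itga10, a cartilage chain, passed in neither step.

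Itga1 and Itga2 are neighbors on chromosome 13 of GRCm38, both on the minus strand. Itga2 is at chr13:114833081-114932100 and Itga1 at chr13:114953096-115101964, 20995 bases apart. Pelo lies within Itga1 on the same strand, and the strand setting of the counting is not given in the sources used here. Itgam, Itgax and Itgad are also neighbors, on chromosome 7. The promoters of the neighboring collagen receptor chains, which rose in both steps, are given for comparison as the 250 bases before the RefSeq start on the minus strand (GRCm38.p6), chr13:115101965-115102214 for Itga1 and chr13:114932101-114932350 for Itga2. Capitals mark CANNTG, with 1 match in Itga1 and 0 in Itga2.
Itga1: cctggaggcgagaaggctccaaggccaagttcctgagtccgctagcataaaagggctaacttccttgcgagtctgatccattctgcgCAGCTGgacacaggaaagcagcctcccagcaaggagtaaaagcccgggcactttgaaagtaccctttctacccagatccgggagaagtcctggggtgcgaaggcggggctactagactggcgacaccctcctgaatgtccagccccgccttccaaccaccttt
Itga2: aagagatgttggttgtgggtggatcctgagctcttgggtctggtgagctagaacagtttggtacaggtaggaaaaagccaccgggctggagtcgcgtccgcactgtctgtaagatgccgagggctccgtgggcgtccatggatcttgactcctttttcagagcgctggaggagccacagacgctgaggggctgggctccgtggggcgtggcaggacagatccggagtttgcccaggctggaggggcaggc
Of the 39 members, 24 had 27 windows in the RefSeq promoter table, read on both strands for 4 motifs. CANNTG was in 21 of the 27 and in 66.2% of all 32536 distinct windows of 250 bases. GGGCGG, the GC box, was in 10 and in 33.0% of all windows, TATAA in 4 and in 22.7%, and TGANTCA, the AP-1 motif, in 1 and in 6.73%. Of the 3 printed windows, those of Lamb3 and Itga1 held matches to CANNTG alone, and that of Itga2 held no match to the 4 motifs.

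Itga4 and Itga9 are related chains that bind VCAM1, fibronectin or tenascin. Itga4 was the member that fell in the first step, with 842, 1037 and 1323 normalized counts in its lowest, median and highest tooth at E13, 652, 713 and 813 at E14, and 951, 1286 and 1469 at E16. The E14 teeth were below all others, and the changes were -0.61 ± 0.10 (SE) on the log2 scale (adjusted p = 7.84e-05) and 0.80 ± 0.10 (adjusted p = 7.67e-07). Itga9 had 1779, 2203 and 2511 at E13, 1942, 2207 and 2573 at E14, and 692, 1172 and 1503 at E16. It changed by 0.05 ± 0.12 in the first step (adjusted p = 0.813) and fell in the second by 0.93 ± 0.12 on the log2 scale, with no overlap (adjusted p = 9.97e-07). Itga8, an RGD receptor of mesenchyme, fell in the second step, by 0.44 ± 0.08 on the log2 scale (adjusted p = 0.000121), from 1415 ± 151 (SD, n = 7) to 1044 ± 108 normalized counts. Vcam1, a ligand of Itga4 and Itga9, fell in the second step (-0.79 ± 0.11, adjusted p = 2.65e-06), and Tnc, a ligand of Itga9, as well (-0.60 ± 0.16, adjusted p = 0.00551). Fn1, the fibronectin gene, had similar means in that step, 27910 ± 3096 (SD, n = 7) normalized counts at E14 and 26200 ± 9253 at E16.

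Among the integrin beta chains, 3 rose in the first step and 5 in the second of 8 tested, beside 11.3% and 15% of all tested genes. Itgb1, which pairs with most alpha chains, had the highest level of all members per kilobase at each stage, 1945 ± 62.8 (SD, n = 7) at E13, 2359 ± 89.7 at E14 and 2387 ± 286 at E16. In normalized counts its lowest, median and highest teeth were 7560, 7981 and 8323 at E13, 9210, 9686 and 10100 at E14, and 8591, 9588 and 12100 at E16. The E13 teeth were below all others, and Itgb1 rose by 0.28 ± 0.07 (SE) on the log2 scale in the first step (adjusted p = 0.00568), with 0.01 ± 0.07 in the second (adjusted p = 0.911). Itgb5, a partner of Itgav and in the dispensable category, had the second highest mean per kilobase at each stage, and its teeth overlapped those of Nid1 at E14 and E16. At E16 its median per kilobase (1299) was below that of Nid1 (1382), as was its mean without the left tooth of embryo 3. In normalized counts Itgb5 had 4646, 4916 and 5920 at E13, 4327, 5660 and 5865 at E14, and 2302, 4614 and 5858 at E16. Its stages overlapped throughout, with no call (0.02 ± 0.14, adjusted p = 0.928, and -0.22 ± 0.14, adjusted p = 0.255).

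Itgb6 and Itgb8 pair with Itgav into receptors that activate TGF-beta. Itgb6, an epithelial chain, was among the lowest members, with 9.86, 34.9 and 74.8 normalized counts in its lowest, median and highest tooth at E13, 27.3, 39.9 and 67.2 at E14, and 50.6, 79.5 and 113 at E16. All stages overlapped, and it rose in the second step (0.85 ± 0.28 SE, adjusted p = 0.0241), a call that was lost with the teeth of an embryo summed (adjusted p = 0.0529, the highest over the alternatives, the lowest being 0.00737). Itgb8 rose in the second step (0.45 ± 0.13, adjusted p = 0.00892) after -0.32 ± 0.13 in the first (adjusted p = 0.0754). The first step of Itgb8 passed without the left tooth of embryo 3 at E16 (-0.33, adjusted p = 0.0118) and in a fit of E13 and E14 alone (adjusted p = 0.0193), where all alternatives ranged from 0.0118 to 0.152. Tgfb1, the ligand whose latent form these receptors bind, rose in the first step (1.84 ± 0.18, adjusted p = 6.50e-08) and fell in the second (-0.94 ± 0.18, adjusted p = 0.000233).

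Itgb2, the beta chain of leukocyte integrins, had 17.1, 27.1 and 45.6 normalized counts in its lowest, median and highest tooth at E13, 47.2, 58.6 and 71.9 at E14, and 30.5, 102 and 164 at E16. It rose in the first step with no overlap (1.07 ± 0.29 SE, adjusted p = 0.0101) and in the second with overlap (0.75 ± 0.27, adjusted p = 0.0404). The call of the second step ended in 9 of the fits that left out 1 tooth and with the teeth of an embryo summed (adjusted p = 0.0687, within a range of 0.00258 to 0.267). Beside it, 6 of the 9 leukocyte and macrophage markers rose in the first step and 4 in the second, and their sum was 1209 to 1920 normalized counts at E13, 2113 to 2602 at E14 and 2286 to 4333 at E16. No marker of this list was at 0 in a tooth, and their part in the result was not tested. The leukocyte alpha chains Itgal and Itgam passed in neither step (Itgal 0.65 ± 0.27, adjusted p = 0.0853, and Itgam 0.16 ± 0.42, adjusted p = 0.832, in the first). Itgal passed in the first step in a fit of E13 and E14 alone (adjusted p = 0.0437, with 0.162 as the highest of all alternatives). Itga2b and Itgb3, which form the platelet fibrinogen receptor, differed, as Itga2b passed in neither step and Itgb3, which also pairs with Itgav, rose in the second (0.63 ± 0.23, adjusted p = 0.0400). That call of Itgb3 ended in 7 of the fits that left out 1 tooth, with adjusted p between 0.00947 and 0.157 over all alternatives. Itgb7, a lymphocyte chain, and Itga7, a muscle laminin receptor, rose from E13 to E16 (1.00 ± 0.35, adjusted p = 0.0239, and 1.41 ± 0.31, adjusted p = 0.000726) but passed in neither single step. The call of Itgb7 ended without the left tooth of embryo 6 or the right tooth of embryo 7 at E16 (adjusted p = 0.0572 and 0.0584), with 0.00958 to 0.0584 over all alternatives.

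Of 25 other basement membrane genes tested, 4 rose and 3 fell in the first step and 12 rose and 2 fell in the second, with medians of 0.28 and 0.33 on the log2 scale. Over all tested genes 11.3% rose and 8.47% fell in the first step, and 15% and 13.1% in the second. The difference between the steps passed the test for 5 of the 25, each above 0. Col7a1, the anchoring fibril collagen, rose by 0.51 ± 0.10 (SE, adjusted p = 0.000895) and 1.25 ± 0.10 (adjusted p = 1.77e-09), and Col17a1, a hemidesmosome collagen, rose in the second step (1.09 ± 0.15, adjusted p = 3.48e-06). Smoc1, a calcium-binding matrix protein, fell in the first step by 0.81 ± 0.21 on the log2 scale (adjusted p = 0.00723) and rose in the second by 2.64 ± 0.21 (adjusted p = 9.04e-10).

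Of 25 genes of the integrin adhesion machinery, 7 rose and 1 fell in the first step, and 4 rose and 4 fell in the second. Over all tested genes, 11.3% rose and 8.47% fell in the first step, and 15% and 13.1% in the second. Fermt1, the epithelial kindlin that activates integrins, rose in the first step (0.56 ± 0.08 SE, adjusted p = 1.06e-05), as did Fermt2 (0.45 ± 0.09, adjusted p = 0.000589). Dst, which encodes a hemidesmosome plakin, and Cd151, a tetraspanin of laminin receptors, rose in both (Dst 0.25 ± 0.07, adjusted p = 0.0135, and 0.69 ± 0.07, adjusted p = 5.34e-08). Of 15 tested integrin ligands other than laminins, 5 rose and 1 fell in the first step and 1 rose and 4 fell in the second. Spp1, osteopontin, rose by 4.68 ± 0.47 in the first step (adjusted p = 8.78e-08). Its mean was 7.62 ± 3.83 (SD) normalized counts at E13 and 198 ± 37.0 at E14, so the size of this change rests on a low E13 level.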

How the data were processed

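Per the sample labels and the methods of the study, the authors filtered the reads, aligned them with STAR to GRCm38 and counted them per gene with HTSeq; the deposited counts are whole and not normalized. A second deposited table holds expected counts that the authors estimated with salmon (0.99.0) for 14185 genes of E13, E15 and E16, here in whole numbers. The strand setting of the counting is not given in the sources used here. A column named with embryo X was taken as the E13 left tooth of embryo 10, the label it matches. Of 7 labelled E15 teeth, 6 have a column.

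Counts of the 21 libraries were tested in a single fit with edgeR (4.0.16, R 4.3.3; TMM, filterByExpr, quasi-likelihood test, a factor for stage), with Benjamini-Hochberg adjustment over 19101 genes. The libraries held 17814073 to 27115729 counts, and the biological coefficient of variation in the fit was 21.2%, so spread among teeth, more than depth, sets the precision of all but the low members. The fits were tested on simulated data. Levels are counts divided by DESeq2 (1.42.0) size factors, also per kilobase of the exon union in the GENCODE vM21 annotation of GRCm38. The teeth of a stage differed beyond counting error in all 63 pairs (chi-square at least 7.74 per degree of freedom), so no library repeated the counts of another. All were kept as separate samples, which does not show that the teeth of an embryo are independent. Deviations from the stage mean correlated between -0.19 and 0.60 in the 3 left and right pairs. Teeth of different embryos of a stage had a median of -0.21. Alternatives were DESeq2, other normalizations and filters, fits of the compared stages only, summed teeth of an embryo, side or embryo number as a factor, the estimated counts, other lengths, and each tooth left out.

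Values are given in full for up to 8 members per comparison with the largest change among called members with a mean of at least 50 normalized counts, for the highest member of each class, for the chains of the hemidesmosome, of the laminins around it and of the main embryonic laminin, for nidogens, and for members in the gene lists of the study. Other members were named after their values were seen, and 1 member enters the counts of members but is not reported here. The members, marker lists and rules were chosen with earlier results of these data known. Upstream sequences are from RefSeq (GRCm38.p6), and protein features were not analysed here.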

Additional observations from a re-analysis of the deposited data

Results flagged for a closer look

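In each stage, the highest or lowest tooth of a member was compared with the other teeth, and it was listed when its gap to the nearest tooth, divided by the range of the 7 teeth, exceeded the 95% critical value of Dixon's test, which chance alone gives in about 1 in 20 groups. Of 114 groups of teeth, 17 held such a tooth, and in 11 of the 17 it was the left tooth of embryo 3 at E16. In that tooth Lamc1 (2941 normalized counts), Nid1 (2519), Nid2 (874.8), Lamb1 (2986), Lamc3 (961.9), Lama2 (2997), Lama3 (1816), Itga5 (784.5) and Itgb4 (2014) were lowest, and Itgb1 (12100) and Itgb8 (1169) were highest. The 6 others of that stage lay between 10220 and 11350 for Lamc1, between 8740 and 10230 for Nid1, and between 8591 and 10020 for Itgb1. Of 10 marker lists, 7 had their lowest E16 sum in this tooth, with 56600 normalized counts for epithelium (82640 to 94720 in the others), 67670 for mesenchyme (207500 to 262200), 4068 for endothelium, 3959 for bone, 2286 for leukocytes and macrophages, 1502 for Schwann cells and neurons and 170.8 for cartilage. The part of these in its values was not tested.

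The other 6 were single teeth of different embryos. Itga10 was 421.5 normalized counts in the left tooth of embryo 3 at E13, Itga11 168.0 in the right tooth of embryo 5 at E13, and Itgae 18.48 in the left tooth of embryo 10 at E13. Itga2 was 477.7 in the right tooth of embryo 5 at E14. At E16, Itga2b was 177.0 in the left tooth of embryo 5 and Itgax 17.38 in the right tooth of embryo 7.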

How the results depend on the processing

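The number of called members, both directions together, stayed within 1.5 times its main value in all alternatives, while the number that fell in the first step went from 1 to 3 without the left tooth of embryo 3 at E16 and in a fit of E13 and E14 alone. With each tooth left out, 18 to 22 members were called between E13 and E14, 14 to 23 between E14 and E16, 23 to 26 between E13 and E16, and 10 to 16 for the difference between the steps. DESeq2 called 18 higher and 1 lower in the first step and 14 and 3 in the second, and summing the teeth of an embryo gave 18 and 1, and 10 and 3. The estimated counts gave 21 higher and 2 lower from E13 to E16, of 33 tested. Embryo numbers name different embryos at each stage and do not pair the teeth. With the embryo number as a replicate block the calls were 13 higher and 2 lower, then 10 and 3, and same-numbered teeth of different stages correlated between -0.31 and 0.49 (15 pairs). The block ended the first-step calls of Itga3, Itgb2, Lama4, Lamc1 and Nid1, the second-step calls of Itga11, Itgb2, Itgb3 and Lama2 (adjusted p = 0.0590 for Lama2, over alternatives from 5.31e-05 to 0.0590), those from E13 to E16 of Itga3, Lamc1 and Nid1, and that of Itga8 in the difference, and added Lama1 in the first step. A fit of the compared stages only was not run for the difference between the steps, which needs all stages. Without the left tooth of embryo 3 at E16, 15 further calls of members were made and no call ended. Calls over all tested genes grew in each comparison as well. The changes this tooth decides include those of Lamc1, Nid1, Lamb3, Lamb2 and Itga5 in the second step and Lama1, Itgb8 and Nid2 in the first. They also include Itga4 and Lamb2 from E13 to E16, and Itgb1, Lamc1, Nid1 and Nid2 in the difference. By stage and embryo (left L, right R), the second-step call of Itgb2 ended without E14 1R, 2R, 3R, 5R or 6L or E16 5L, 6L, 7R or 8L, that of Itgb3 without E14 3R, 5R, 6L or 8L or E16 6L, 7R or 8L, and that of Itga11 without E14 5R or E16 6L, 7R or 8L. Calls were gained for Lama1 in the first step without E13 1R or 10L, Itgal without E13 3L, Itga7 without E13 7L or E14 1R, and Itgb8 without E14 3R; and in the second step for Itga7 without E14 3R and Itgav without E14 5R.

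Of 119 values of named members, 15 changed sign in some alternative, and 0 of these had been called. With each tooth left out, the log2 fold change from E13 to E14 spanned -0.0042 to 0.064 for Itga5 and -0.0078 to 0.063 for Itgb5. From E14 to E16 it spanned -0.031 to 0.17 for Itga3, -0.033 to 0.057 for Itgb1 and -0.13 to 0.056 for Lamb1, and from E13 to E16 -0.17 to 0.015 for Lamb1, -0.074 to 0.033 for Lama4 and -0.18 to 0.062 for Nid2. The difference between the steps spanned -0.022 to 0.15 for Itga1, -0.13 to 0.089 for Lama3, -0.012 to 0.23 for Lama5 and -0.084 to 0.096 for Lamb1. With the replicate block the value was -0.032 for Itga5 and 0.021 for Lamb1 in the first step, -0.0094 for Itgb1, -0.058 for Lamc1 and -0.048 for Nid1 in the second, and 0.040 for Lama3 in the difference. With side as a factor it was -0.0056 for Itga5 in the first step and 0.0079 for Lamb1 in the difference.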

Other observations

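The table of estimated counts adds E15, a stage between cap and bell, for 6 teeth beside the 7 of E13 and 7 of E16, and lists 35 of the members. It was not compared with E14, which is only in the other table, and the values are given without a test. The E15 samples are labelled by age where the others are labelled by embryonic day, and the methods of the study name no E15 mouse teeth. Whether their libraries were made with the others is not given, so stage and set of libraries cannot be told apart for E15. Of the 34 members with a mean of at least 3 in it, the E15 mean lay between those of E13 and E16 for 22, above both for 10 and below both for 2. Lamc3 had 81.7 ± 26.9 normalized estimated counts (SD) at E13, 953 ± 299 at E15 and 1863 ± 480 at E16. Lama3 had 625 ± 99.7, 2273 ± 290 and 2248 ± 206, and Lamb3 378 ± 87.6, 1575 ± 350 and 1549 ± 253, so both chains were at E15 within 1 SD of their level at E16. Lama2 was highest at E15, with 2345 ± 188, 5161 ± 312 and 3825 ± 319. Itga9 had 2006 ± 227, 1390 ± 245 and 1086 ± 225, so its E15 mean was between those of the bud and the bell.

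Markers of tissues around the tooth differed between single libraries. The sum of 8 skeletal muscle markers was 28310 normalized counts in the left tooth of embryo 7 at E13, where the median of E13 was 981. Itga7, the muscle laminin receptor, had 39.8 normalized counts at most in an E13 tooth. Without the left tooth of embryo 7 (the fifth replicate of E13), Itga7 rose in the first step (1.06 on the log2 scale, edgeR adjusted p = 0.0208), against 0.80 and 0.0737 with it, and over all alternatives the adjusted p lay between 0.0208 and 0.195. The part of the muscle markers in this difference was not tested. Of the 5 cartilage markers, 3 were tested, and 2 of these fell in the first step, while 1 rose and 1 fell in the second. The sum of the 5 went from 3601 ± 222 (SD, n = 7) to 1795 ± 605 and 480 ± 148. Most of it was Col2a1, with means of 3550, 1771 and 414, whereas Acan went from 7.87 to 9.93 and 50.9.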
